A study of Mus musculus with 4 samples.

Results

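Genes induced by type I and type II interferon were followed across immune cells of mouse mammary tumours. The list held 45 gene symbols chosen for their known place in the interferon response, and 44 of them were among the 31053 measured features; Mx2 was not analysed here. The tumours came from FVB/NJ mice of 2 genotypes, Jagged1/PyMT and PyMT, all 12 weeks old, with 2 samples of each genotype. PyMT is the polyoma virus middle T oncogene, which drives mammary tumours and which both genotypes carried, and JAGGED1 is a ligand of Notch receptors. The labels do not say which promoter drives either gene, nor how many mice gave each sample. Immune cells had been sorted from digested tumours and counted with a droplet method that tags each RNA molecule, so that values are unique molecular identifiers (UMIs). Both samples of a genotype were pooled in 1 count matrix, which left 1 library per genotype. No spread between mice could be measured, no test between genotypes was possible, and the intervals below are 95% intervals that cover counting error only.

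Type I interferons signal through the IFNAR receptor to a transcription factor complex that holds STAT2 and IRF9 and binds the interferon-stimulated response element (ISRE) in promoters. Interferon gamma, the type II interferon, signals through its own receptor to factors that bind the gamma-activated site (GAS). Both induce overlapping genes for antiviral effectors, nucleic acid sensors and GTPases that attack membranes around microbes, and in tumours the same genes mark macrophages, dendritic cells and lymphocytes that have met interferon.

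An ISRE core was found in 21 of the 34 members with a promoter window, not in all. The stretches of promoter that carry it are shown for 9 of those that held it, with leading places in the results. They are RefSeq promoter windows of build GRCm38.p6, which run from 250 bases before to 50 bases after each annotated start, read 5′ to 3′ on the gene's strand. Capitals mark the ISRE core GAAANNGAAA, searched on both strands with overlapping matches joined, so that a core on the other strand reads as TTTC, any pair of bases and TTTC again. All stretches lie upstream of the start. They lie at chr4:156200860-156200911 (minus strand) for Isg15, chr19:34640770-34640828 (plus) for Ifit1, chr19:34583358-34583431 (plus) for Ifit3, chr19:34607754-34607827 (plus) for Ifit3b, chr12:26456548-26456587 (minus) for Rsad2, chr5:120907526-120907560 (minus) for Oas1a, chr3:142620589-142620628 (plus) for Gbp2, chr11:58199507-58199546 (plus) for Igtp and chr11:48871421-48871465 (minus) for Irgm1.
Isg15: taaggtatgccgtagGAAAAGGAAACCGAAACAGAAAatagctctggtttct
Ifit1: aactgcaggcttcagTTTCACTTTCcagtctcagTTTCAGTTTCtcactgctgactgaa
Ifit3: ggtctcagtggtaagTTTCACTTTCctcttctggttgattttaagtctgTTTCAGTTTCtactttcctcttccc
Ifit3b: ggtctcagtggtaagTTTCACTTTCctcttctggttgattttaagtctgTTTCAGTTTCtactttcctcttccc
Rsad2: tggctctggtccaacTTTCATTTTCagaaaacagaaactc
Oas1a: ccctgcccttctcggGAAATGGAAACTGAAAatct
Gbp2: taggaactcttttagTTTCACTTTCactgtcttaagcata
Igtp: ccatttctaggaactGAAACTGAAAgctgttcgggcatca
Irgm1: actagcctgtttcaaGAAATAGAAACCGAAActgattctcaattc

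Isg15 held 3 overlapping cores within 1 run, and Ifit1 held 2 cores that did not touch. The stretches of Ifit3 and Ifit3b, neighbouring copies on chromosome 19, were identical letter for letter, and UMIs of such near copies can be split or lost in counting. Of the members, 34 matched a promoter window, and 21 of these (61.8%) held an ISRE core, against 1079 of 27025 genes with a window (3.99%). The GAS core TTCNNNGAA, also searched on both strands, was in 8 of the 34 members (23.5%), against 9.55% of all genes. By role, the ISRE core was in 8 of 15 antiviral effectors, 1 of 3 signalling genes, 4 of 4 nucleic acid sensors, 4 of 5 GTPases and 4 of 7 other members. A match is a description of these letters and shows no binding.

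The Jagged1/PyMT library held 55506773 UMIs and the PyMT library 36012036. Cells were barcodes of 500 or more UMIs and 250 or more genes whose mitochondrial share did not exceed 10%, which gave 7875 in Jagged1/PyMT (median 4200 UMIs) and 7444 in PyMT (median 3841 UMIs). Levels are given as CPM, UMIs scaled to the same total in every class. Jag1 itself was at 16.8 CPM (15.7 to 17.9) in Jagged1/PyMT cells and 1.96 CPM (1.52 to 2.49) in PyMT cells. Ptprc, the CD45 gene of leukocytes, had a UMI in 73.7% of Jagged1/PyMT and 77.3% of PyMT cells. A barcode entered a class with at least 3 UMIs from at least 2 of that class's marker genes and under 3 UMIs of every other lineage. Class names stand for marker RNA alone. This gave 1665 macrophages in Jagged1/PyMT and 177 in PyMT, 2453 T cells in Jagged1/PyMT and 4771 in PyMT, and 1238 B cells in Jagged1/PyMT and 1364 in PyMT. The C1q markers that gate macrophages were at 12564 CPM in Jagged1/PyMT macrophages and 11929 CPM in PyMT macrophages. Barcodes with markers of more than 1 lineage, 1885 in Jagged1/PyMT and 641 in PyMT, were kept out of the classes. The libraries shared 70 cell barcodes, 19 of them in the same class in both, and without them the values of the interferon genes moved little: the summed level of the 12-gene set described below was 485 CPM in Jagged1/PyMT and 341 CPM in PyMT macrophages.

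At least 1 UMI of a member was found in 90.6% of Jagged1/PyMT cells and 89.0% of PyMT cells. Summed over all cells, the members made up 1643 CPM in Jagged1/PyMT and 995 CPM in PyMT. That sum mixes cell types, since macrophages took 21.1% of the Jagged1/PyMT cells and far fewer of the PyMT cells, and the members were more abundant in myeloid cells. Within macrophages the members summed to 1859 CPM in Jagged1/PyMT and 1348 CPM in PyMT. T cells held 1110 CPM of them in Jagged1/PyMT and 912 CPM in PyMT, and B cells 756 CPM in Jagged1/PyMT and 553 CPM in PyMT.

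Most members were highest in a myeloid class in both libraries, though the class that led most often differed. Among 6 classes compared, the class with the highest level was the same in both libraries for 32 of 44 members. In Jagged1/PyMT the highest level was in monocytes for 18 members, neutrophils for 11, mature dendritic cells for 6, macrophages for 5, T cells for 4 and B cells for 0. In PyMT it was in macrophages for 12, monocytes for 10, neutrophils for 10, mature dendritic cells for 7, T cells for 4 and B cells for 1. These ranks rest in part on few cells, with 98 monocytes in Jagged1/PyMT and 42 in PyMT. Macrophage levels stood above T cell levels for 33 of 44 members in Jagged1/PyMT and for 34 of 43 in PyMT. Isg15, a ubiquitin-like protein attached to other proteins, was highest in neutrophils, at 497 CPM in Jagged1/PyMT and 536 CPM in PyMT. Ifi27l2a, a small membrane protein gene, was highest in monocytes, at 923 CPM in Jagged1/PyMT and 1106 CPM in PyMT. Gbp2, a guanylate-binding GTPase, peaked in mature dendritic cells, at 238 CPM in Jagged1/PyMT and 196 CPM in PyMT.

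A few members were instead higher in T cells, with 7 over 1.5-fold lower in macrophages than in T cells in Jagged1/PyMT and 6 in PyMT. Ifi47, an immunity-related GTPase, was at 78.6 CPM in T cells and 12.2 CPM in macrophages of Jagged1/PyMT. In PyMT it was at 57.4 CPM in T cells and 7.64 CPM in macrophages. Igtp, a GTPase of the same family, was at 44.9 CPM in T cells and 10.4 CPM in macrophages of Jagged1/PyMT, and at 54.3 CPM in T cells and 5.46 CPM in macrophages of PyMT. Ddx58, which encodes the RNA sensor RIG-I, and Ifi203, of a family of DNA sensors, were also lower in macrophages than in T cells in both libraries, by -2.0 and -1.07 on the log2 scale in Jagged1/PyMT and by -2.84 and -1.60 in PyMT. Bst2, the tetherin that holds budding virus at the cell surface, reached 4260 CPM in the 10 plasmacytoid dendritic cells of Jagged1/PyMT and 3944 CPM in the 6 of PyMT.

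In macrophages most members were higher in Jagged1/PyMT. The macrophage comparison rested on 14025709 UMIs in Jagged1/PyMT and on far fewer in PyMT, where the 177 cells had a median of 2897 UMIs, against 6706 in Jagged1/PyMT. Of 42 members with at least 50 UMIs over both libraries, 19 were over 1.5-fold higher in Jagged1/PyMT and 1 was over 1.5-fold lower. Of all 9242 genes measured so in macrophages, 15.5% lay over 1.5-fold higher in Jagged1/PyMT and 10.4% lay over 1.5-fold lower. The members' median log2 ratio of Jagged1/PyMT over PyMT was 0.57, beside 0.08 for all genes. Of the ratios, 33 of 42 were positive for members and 5233 of 9242 for all genes. In an alternative, barcodes with markers of a second lineage were kept where their dominant lineage had at least 3 times the UMIs of every other. The median was then 0.13, with 7 members over 1.5-fold higher and 5 lower. With cells thinned to an equal 1000 UMIs the median was 0.29, with 6 of the 16 members then measured higher and 2 lower. The macrophages also differed in other RNA. Outside the high state described below, S100a8, a neutrophil and monocyte gene, was at 58.7 CPM in Jagged1/PyMT and 205 CPM in PyMT. Mki67, a proliferation gene, was at 89.7 CPM in Jagged1/PyMT and 39.9 CPM in PyMT there, and the median mitochondrial share was 2.11% in Jagged1/PyMT and 2.84% in PyMT. Their part in the result was not tested.

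Among the antiviral effectors, 7 of 16 measured were over 1.5-fold higher in Jagged1/PyMT macrophages and 1 was lower. Isg15 was at 188 CPM in Jagged1/PyMT and 127 CPM in PyMT, a log2 ratio of 0.57 (0.30 to 0.85). Bst2 was at 263 CPM in Jagged1/PyMT and 175 CPM in PyMT, a log2 ratio of 0.59 (0.36 to 0.83). Both rested on over 100 UMIs in each library, and their intervals lay above 0. These intervals treat UMIs as independent and leave out spread between cells, which matters most for Isg15. Among macrophages of at least 1000 UMIs, 3 PyMT cells in the high state described below held 54.8% of the Isg15 UMIs. In Jagged1/PyMT 54 such cells held 43.3%. For Bst2 the high-state share was 9.49% in PyMT and 10.1% in Jagged1/PyMT. Ifit2, of the tetratricopeptide family that blocks translation of foreign RNA, was at 22.7 CPM in Jagged1/PyMT and 7.64 CPM in PyMT, a log2 ratio of 1.57 (0.51 to 2.90) that rested on 319 UMIs in Jagged1/PyMT and 7 in PyMT. With second-lineage barcodes kept its ratio was 0.13.
Ifit1, which binds foreign RNA caps, was at 14.4 CPM in Jagged1/PyMT and 8.73 CPM in PyMT, with an interval that spanned 0. Ifit3 was at 30.9 CPM in Jagged1/PyMT and 30.6 CPM in PyMT, and its copy Ifit3b was at 8.27 CPM in Jagged1/PyMT and 4.37 CPM in PyMT. Of the Ifit ratios only that of Ifit2 had an interval above 0, and differences between these ratios were not tested.

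Mx1, a dynamin-like GTPase against influenza, was at 13 CPM in Jagged1/PyMT and 3.27 CPM in PyMT macrophages, a log2 ratio of 1.99 (0.42 to 4.29) on 183 UMIs in Jagged1/PyMT and 3 in PyMT, but the ratio was -1.57 with second-lineage barcodes kept and -1.10 with classes taken from clusters. Oasl1, an oligoadenylate synthetase-like gene that in mice represses translation of Irf7, was at 19.4 CPM in Jagged1/PyMT and 8.73 CPM in PyMT, and its log2 ratio of 1.15 became -0.29, -0.94 and -0.55 under a stricter gate, with second-lineage barcodes kept and with clusters. Their direction was therefore not settled by these cells. Oas2, which makes the oligoadenylate that activates RNase L, had 52 UMIs (3.71 CPM) in Jagged1/PyMT macrophages and 0 in PyMT, whose 916223 UMIs allow up to 4.03 CPM, and Ifi44 had 48 UMIs (3.42 CPM) in Jagged1/PyMT and 0 in PyMT, so no difference was detectable for either. Oas1a, another of these synthetases, was at 30.7 CPM in Jagged1/PyMT and 19.6 CPM in PyMT, a log2 ratio of 0.64 that became -0.34 in thinned cells. Samhd1, which breaks down DNA building blocks, was at 88.2 CPM in Jagged1/PyMT and 91.7 CPM in PyMT.

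Rsad2, the gene of viperin, which makes a chain-terminating nucleotide, was the 1 effector over 1.5-fold lower in Jagged1/PyMT macrophages. It was at 49.2 CPM (45.6 to 53.0) in Jagged1/PyMT and 79.7 CPM (62.5 to 100.2) in PyMT, a log2 ratio of -0.70 (-1.05 to -0.33). The PyMT level came from 73 UMIs in only 3 cells, all of them in the high state described below, against 690 UMIs in 73 cells of Jagged1/PyMT. Without the high-state cells, which Rsad2 itself helped to choose, PyMT had no Rsad2 UMI, and the log2 ratio was at least 1.69, taken against a floor of 3 counts in PyMT. Cmpk2, a nucleotide kinase whose gene neighbours Rsad2, was at 12.1 CPM in Jagged1/PyMT and 10.9 CPM in PyMT.

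Of the 4 signalling and feedback genes, only Irf7 passed 1.5-fold in macrophages. Irf7, the transcription factor that amplifies interferon production, was at 115 CPM (109 to 121) in Jagged1/PyMT and 46.9 CPM (34.0 to 63.2) in PyMT, a log2 ratio of 1.29 (0.86 to 1.76). The ratio stayed positive with second-lineage barcodes kept and with clusters, at 0.75 in both. Irf9 and Stat2, whose proteins are part of the type I complex, had log2 ratios of -0.15 and -0.17, and Usp18, which removes ISG15 and dampens the receptor, was at 14.9 CPM in Jagged1/PyMT and 13.1 CPM in PyMT.

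Nucleic acid sensors were over 1.5-fold higher in Jagged1/PyMT macrophages for 5 of 7, with a median of 1.04, at low counts in PyMT. Ddx58 had a log2 ratio of 1.37 with an interval of -0.21 to 3.67. Ifi204 was at 1.36, Dhx58 at 1.08, Eif2ak2, the kinase that stops translation on double-stranded RNA, at 1.04, and Ifi203 at 0.77, which became -0.012 with second-lineage barcodes kept and -0.15 with clusters. Zbp1, which senses left-handed nucleic acid, was at 0.57. Ifih1, a sensor of long double-stranded RNA, was at 0.05. Of the 10 other members 4 were over 1.5-fold higher. Xaf1, a promoter of cell death, was at 35.3 CPM in Jagged1/PyMT and 17.5 CPM in PyMT, a log2 ratio of 1.02 (0.30 to 1.83), and Rtp4, a chaperone of cell-surface receptors, was at 31.7 CPM in Jagged1/PyMT and 16.4 CPM in PyMT, a ratio of 0.95 that became 0.05 in thinned cells. Phf11b was at 61.4 CPM in Jagged1/PyMT and 34.9 CPM in PyMT, a log2 ratio of 0.81 (0.31 to 1.37). Ifi27l2a, the most abundant member in macrophages, was at 412 CPM in Jagged1/PyMT and 276 CPM in PyMT, a log2 ratio of 0.58 (0.40 to 0.76), while Ifi35, Slfn5 and Slfn8 lay at -0.11, -0.11 and -0.19.

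T cells were the deepest comparison, with similar depth per cell, a median of 3756 UMIs in Jagged1/PyMT and 3891 in PyMT. Of 32 members with at least 50 UMIs, 12 were over 1.5-fold higher in Jagged1/PyMT T cells and 1 was lower, where 6.43% of 9699 genes were higher and 5.94% lower. The members' median log2 ratio was 0.44, beside -0.00 for all genes. Ratios were positive for 27 of 32 members and for 4824 of all 9699 genes. Over the alternatives tried that median ranged from 0.35 to 0.55, and the members higher in Jagged1/PyMT were 6 of 23 with at least 200 UMIs per gene and 19 of 41 with at least 10.
Of the antiviral effectors, 6 of 9 measured were over 1.5-fold higher, with a median of 0.84, but their sum, in which the abundant Samhd1 and Bst2 weigh most, was 270 CPM in Jagged1/PyMT and 242 CPM in PyMT, 1.11-fold. Sensors summed to 111 CPM in Jagged1/PyMT and 83.2 CPM in PyMT, 1.33-fold. Isg15 was at 25 CPM (22.0 to 28.3) in Jagged1/PyMT T cells and 14.3 CPM (12.7 to 16) in PyMT T cells, a log2 ratio of 0.81 (0.56 to 1.06). Its UMIs lay in 168 Jagged1/PyMT and 194 PyMT T cells, and its level intervals did not overlap between the libraries. Isg20, an exonuclease of single-stranded RNA, was at 16.6 CPM in Jagged1/PyMT and 9.28 CPM in PyMT, a log2 ratio of 0.84 (0.53 to 1.15). The ratios of both genes had intervals above 0. Ifit1 had 33 UMIs in Jagged1/PyMT and 27 in PyMT T cells, a log2 ratio of 1.29 (0.52 to 2.08), and Ifit2 had 45 in Jagged1/PyMT and 39 in PyMT, a ratio of 1.21 (0.56 to 1.87).
Rsad2 had the largest ratio, with 56 UMIs in Jagged1/PyMT T cells and 5 in PyMT T cells, a log2 ratio of 4.49 (3.18 to 6.17). A single Jagged1/PyMT cell held 39 of the 56 UMIs. It was seen in 13 of the 2453 Jagged1/PyMT T cells and in 5 of the 4771 PyMT T cells. Without the high-state cells there were 15 UMIs in Jagged1/PyMT and 5 in PyMT, a log2 ratio of 2.59.

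Among the other groups in T cells, Xaf1 and Rtp4 stood out by the size of their change. Xaf1 was at 13.4 CPM in Jagged1/PyMT and 5.01 CPM in PyMT, a log2 ratio of 1.42 (1.04 to 1.81). Rtp4 was at 14.6 CPM in Jagged1/PyMT and 5.41 CPM in PyMT, a log2 ratio of 1.44 (1.07 to 1.81). Slfn5, of the Schlafen family, was at 7.57 CPM in Jagged1/PyMT and 4.02 CPM in PyMT, and Parp14, an ADP-ribosyltransferase, was at 30.4 CPM in Jagged1/PyMT and 19.7 CPM in PyMT. Without the high-state cells the log2 ratios of Xaf1 and Rtp4 were nearly the same, at 1.43 and 1.39. Sensors were mixed. Ifih1 was at 6.37 CPM in Jagged1/PyMT and 3.28 CPM in PyMT, a log2 ratio of 0.96, and Zbp1 was at 27.6 CPM in Jagged1/PyMT and 17.7 CPM in PyMT, a ratio of 0.64. Ifi204 was the 1 member over 1.5-fold lower, with 13 UMIs in Jagged1/PyMT and 71 in PyMT T cells, a log2 ratio of -1.44 (-2.42 to -0.58). Irf7 was level between genotypes, at 37.7 CPM in Jagged1/PyMT and 36.0 CPM in PyMT, unlike its macrophage ratio of 1.29; the difference between those ratios was not tested. Samhd1 was at 135 CPM in Jagged1/PyMT and 155 CPM in PyMT, a log2 ratio of -0.20 (-0.29 to -0.11).

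The members' median log2 ratio was 0.37 in T cells with Cd8 RNA and 0.32 in T cells with Cd4 RNA, and differences between these subsets were not tested. In Cd8 T cells (712 in Jagged1/PyMT and 1286 in PyMT) 6 of 24 measured members were over 1.5-fold higher and 0 lower, where 6.92% of 7899 genes were higher and 6.28% lower. In Cd4 T cells (675 in Jagged1/PyMT and 1396 in PyMT) 3 of 23 were higher and 0 lower, where 5.51% of 7422 genes were higher and 8.08% lower. Isg15 was at 28.9 CPM in Jagged1/PyMT and 13.7 CPM in PyMT Cd8 T cells, a log2 ratio of 1.08 (0.65 to 1.5). In Cd4 T cells it was at 13.9 CPM in Jagged1/PyMT and 12.2 CPM in PyMT, a ratio of 0.19 (-0.43 to 0.79). Rtp4 was at 17.4 CPM in Jagged1/PyMT and 4.31 CPM in PyMT Cd8 T cells, a log2 ratio of 2.01 (1.35 to 2.71). In Cd4 T cells it was at 8.52 CPM in Jagged1/PyMT and 6.37 CPM in PyMT, a ratio of 0.42 (-0.42 to 1.22). The ratio intervals of the subsets overlapped for Isg15 and did not for Rtp4. Xaf1 did not follow that split, with log2 ratios of 1.64 (1.0 to 2.29) in Cd8 and 1.61 (0.79 to 2.45) in Cd4 T cells.

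In B cells 10 of 21 measured members were over 1.5-fold higher in Jagged1/PyMT and 0 lower, where 4.52% of 7901 genes were higher and 6.1% lower. The members' median log2 ratio was 0.49, beside -0.03 for all genes. Ratios were positive for 19 of 21 members and for 3586 of all 7901 genes. Most of these members were low genes, and of the 8 members with at least 200 UMIs 2 were over 1.5-fold higher, with a median of 0.20. Isg15 was at 16.6 CPM (12.9 to 21.1) in Jagged1/PyMT B cells and 7.54 CPM (5.31 to 10.4) in PyMT B cells, a log2 ratio of 1.14 (0.54 to 1.76). Ifi27l2a had the most UMIs, at 186 CPM in Jagged1/PyMT and 120 CPM in PyMT, a log2 ratio of 0.63 (0.48 to 0.79). Parp14 was at 33.5 CPM in Jagged1/PyMT and 21.6 CPM in PyMT, a log2 ratio of 0.63 (0.25 to 1.01).
Slfn8, Ifi47 and Phf11b had ratios of 0.99, 0.97 and 0.91, each on 41 to 55 UMIs in Jagged1/PyMT and 25 to 35 in PyMT. Samhd1 ran the other way from T cells, at 151 CPM in Jagged1/PyMT and 120 CPM in PyMT B cells, a log2 ratio of 0.32 (0.16 to 0.49). Irf7 was again level, at 35.7 CPM in Jagged1/PyMT and 37.5 CPM in PyMT. Jagged1/PyMT B cells had 2 UMIs of Ifit1, 8 of Ifit2, 3 of Ifit3, 6 of Rsad2 and 5 of Mx1, and PyMT B cells had 0 of each.

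**Figure D1:**
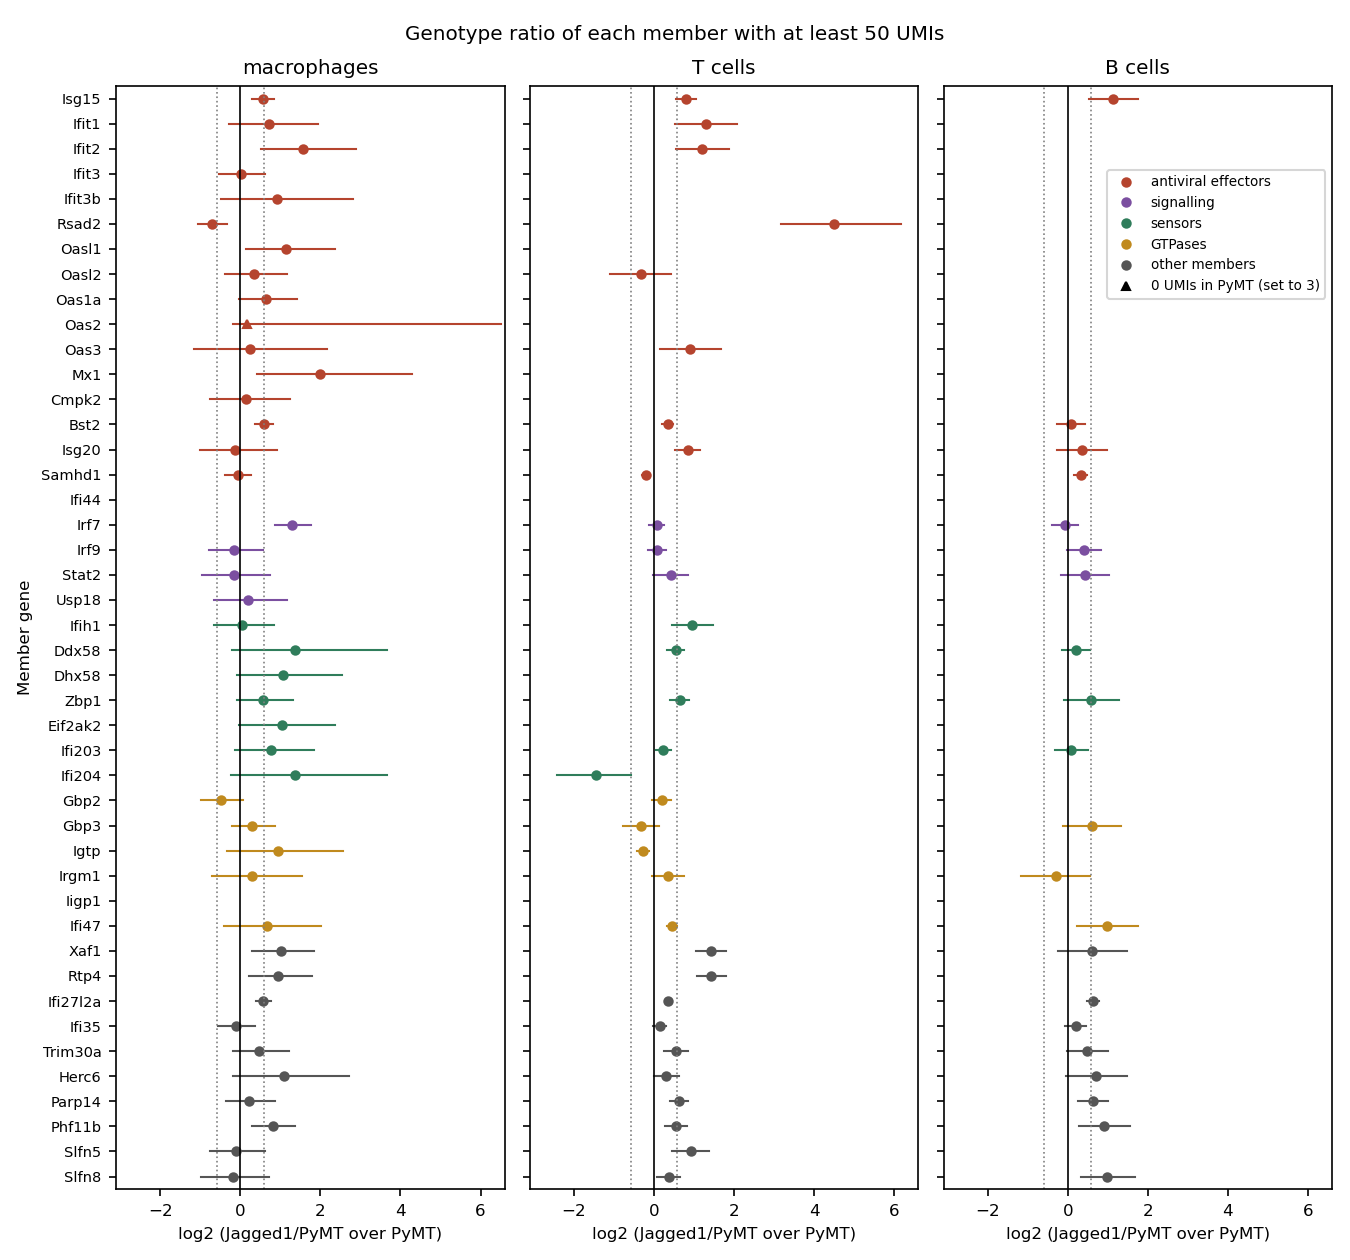
Log2 ratio of CPM, Jagged1/PyMT over PyMT, with its 95% counting interval for each member with at least 50 UMIs in macrophages, T cells and B cells; dotted lines mark 1.5-fold, and triangles are members with 0 UMIs in PyMT, set to 3 counts. Most points lay above 0 in all 3 classes, with Rsad2 at -0.70 in macrophages and 4.49 in T cells.

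The GTPases that interferon gamma induces most strongly moved little in macrophages and T cells. Their summed level was 105 CPM in Jagged1/PyMT and 96.0 CPM in PyMT macrophages, a 1.09-fold ratio (0.883 to 1.37), and 164 CPM in Jagged1/PyMT and 148 CPM in PyMT T cells, a 1.11-fold ratio. In B cells it was 35.2 CPM in Jagged1/PyMT and 23.0 CPM in PyMT, a 1.53-fold ratio (1.19 to 1.97). Cd8 T cells held 176 CPM in Jagged1/PyMT and 139 CPM in PyMT, 1.26-fold (1.14 to 1.40), while Cd4 T cells held 142 CPM in Jagged1/PyMT and 139 CPM in PyMT. Members of the family moved apart in T cells. Ifi47 had a log2 ratio of 0.45 (0.32 to 0.58) there, Igtp -0.27 (-0.44 to -0.11), Gbp3 -0.32, Irgm1 0.35 and Gbp2 0.19. Iigp1 was scarce, with 19 UMIs in Jagged1/PyMT and 27 in PyMT T cells, and 10 in Jagged1/PyMT and 1 in PyMT macrophages. In macrophages Gbp2 was at 26.6 CPM in Jagged1/PyMT and 37.1 CPM in PyMT, a log2 ratio of -0.48 (-0.99 to 0.07), Gbp3 was at 0.30 and Irgm1 at 0.30. Igtp and Ifi47 had ratios of 0.93 and 0.67 in macrophages, on 5 and 7 PyMT UMIs. These ratios became -0.15 and -0.42 with second-lineage barcodes kept and -0.23 and -0.50 with clusters. A gate of 5 UMIs also took Ifi47 to -0.0085.

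A set of 12 members that respond mainly to type I interferon (Isg15, Ifit1, Ifit2, Ifit3, Ifit3b, Rsad2, Oasl1, Mx1, Usp18, Cmpk2, Ifi44 and Irf7) was summed to compare classes. In macrophages the set was at 491 CPM (479 to 503) in Jagged1/PyMT and 341 CPM (304 to 380) in PyMT, 1.44-fold (1.29 to 1.62). With second-lineage barcodes kept the log2 ratio was -0.10 in place of 0.53. T cells were at 82.5 CPM (77.0 to 88.3) in Jagged1/PyMT and 56.3 CPM (53.0 to 59.6) in PyMT, 1.47-fold (1.34 to 1.61). B cells were at 66.4 CPM (58.8 to 74.8) in Jagged1/PyMT and 47.5 CPM (41.6 to 54.0) in PyMT, 1.40-fold (1.17 to 1.67). Few of the 12 genes reached 50 UMIs in lymphocytes, 5 in T cells and 2 in B cells. In B cells these were Irf7, which was level between genotypes, and Isg15. They made up most of the B cell sum, at 35.7 and 16.6 CPM in Jagged1/PyMT. The ratio intervals of the 3 classes overlapped in this setting, and differences between the classes were not tested. Among T cells, Cd8 cells had 80.5 CPM in Jagged1/PyMT and 54.1 CPM in PyMT, 1.49-fold (1.27 to 1.75), and Cd4 cells had 56.5 CPM in Jagged1/PyMT and 54.5 CPM in PyMT, 1.04-fold (0.846 to 1.27).

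Monocytes, gated by Csf1r and related genes without C1q, held 785 CPM of the set in 98 Jagged1/PyMT cells and 167 CPM in 42 PyMT cells, 4.69-fold (3.65 to 6.12). The top monocyte of each library held 38.9% of the set's UMIs in Jagged1/PyMT and 37.3% in PyMT. Mature dendritic cells held 567 CPM in 63 Jagged1/PyMT cells and 170 CPM in 59 PyMT cells, 3.34-fold (2.64 to 4.25), with 33.0% of the UMIs in the top cell in Jagged1/PyMT and 10.3% in PyMT. Neutrophils showed no such gap, at 638 CPM in 133 Jagged1/PyMT cells and 620 CPM in 62 PyMT cells, 1.03-fold (0.822 to 1.29). These 3 classes had too few cells for a comparison of single genes, and their ratios rest in part on 1 cell where the top cell's share is large.

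**Figure D2:**
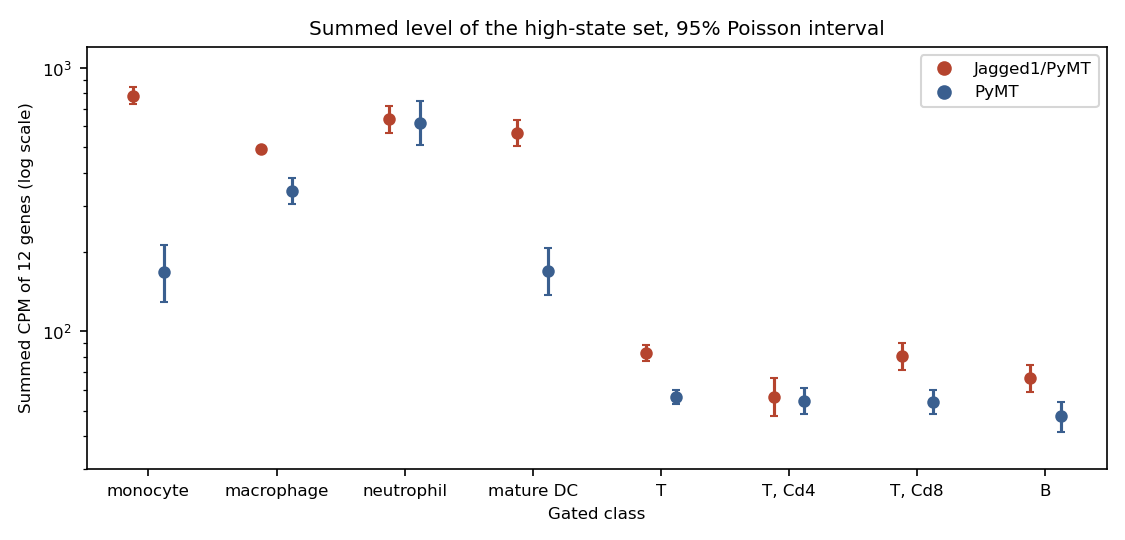
Summed level of the 12-gene set in CPM on a log axis, by class, with 95% Poisson intervals and Jagged1/PyMT left of PyMT. Monocytes (785 CPM in Jagged1/PyMT and 167 CPM in PyMT) and mature dendritic cells (567 CPM in Jagged1/PyMT and 170 CPM in PyMT) had wide gaps, and the neutrophil intervals overlapped.

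Other features of the libraries moved with these differences. RNA outside cells, taken from barcodes under 100 UMIs, held 375 CPM of the set in Jagged1/PyMT and 131 CPM in PyMT, and C1q at 4155 CPM in Jagged1/PyMT and 763 CPM in PyMT. C1q markers were at 57.7 CPM in Jagged1/PyMT and 12.8 CPM in PyMT T cells, and at 45.2 CPM in Jagged1/PyMT and 7.54 CPM in PyMT B cells. If all C1q in T cells came from that RNA, it would carry 5.21 of 82.5 CPM of the set in Jagged1/PyMT and 2.19 of 56.3 CPM in PyMT. In B cells it would carry 4.08 of 66.4 CPM in Jagged1/PyMT and 1.29 of 47.5 CPM in PyMT. The gate caps C1q in those cells, so these are low estimates. With free RNA subtracted at a flat 5% the log2 ratio of the set was 0.37 in T cells and 0.23 in B cells. The 9 genes of a dissociation stress list, among them Fos, Jun and Hspa1a, were also higher: summed, they were at 10761 CPM in Jagged1/PyMT and 7218 CPM in PyMT macrophages, 3208 CPM in Jagged1/PyMT and 2729 CPM in PyMT T cells, and 6469 CPM in Jagged1/PyMT and 4251 CPM in PyMT B cells. Over 1.5-fold higher were 4, 4 and 7 of these 9 genes in macrophages, T cells and B cells, and 0 were lower. The part of digestion, free RNA or sample handling in the interferon differences was not tested, and with 1 library each they cannot be told apart from genotype.

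Per cell, UMIs of the type I set were absent from most cells at the depth read here and many in a small number of cells. After each cell was thinned to 1000 UMIs, 82.5% of Jagged1/PyMT and 89.5% of PyMT macrophages had no UMI of the set. No UMI was seen in 93.1% of Jagged1/PyMT and 94.6% of PyMT T cells, nor in 94.3% of Jagged1/PyMT and 95.6% of PyMT B cells. Without thinning, a UMI was present in 35.8% of Jagged1/PyMT and 22.6% of PyMT macrophages, 20.4% of Jagged1/PyMT and 17.8% of PyMT T cells, and 14.0% of Jagged1/PyMT and 13.6% of PyMT B cells. A cell was taken to be in a high state with at least 4 UMIs from at least 3 genes of the set per 1000. No gap in Jagged1/PyMT macrophages set that limit: 25 had 3 UMIs and 14 had 4, beside 54 cells in the high state. In PyMT macrophages 0 had 3 UMIs and 1 had 4. The share of cells in the state therefore depends on the limit chosen.

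Most of the gated cells in the high state were macrophages. It held 54 of 1567 Jagged1/PyMT macrophages, 3.45% (Clopper-Pearson 2.60 to 4.47), and 3 of 143 PyMT macrophages, 2.10% (0.435 to 6.01). These intervals overlap widely, so a difference in the share was not detectable at the PyMT cell number, and the thinning left out 98 Jagged1/PyMT and 34 PyMT macrophages under 1000 UMIs. Without the barcodes found in both libraries the shares were 3.34% in Jagged1/PyMT and 2.11% in PyMT. The state held 4 of 2408 Jagged1/PyMT T cells, 0.166% (0.0453 to 0.425), and 1 of 4737 PyMT T cells, 0.0211% (0.000534 to 0.118). B cells had 2 of 1219 in Jagged1/PyMT and 0 of 1350 in PyMT, which allows up to 0.222% by 3 counts of the total and 0.273% by the Clopper-Pearson limit. Jagged1/PyMT monocytes had 3 high cells of 98, neutrophils 2 of 128 and mature dendritic cells 1 of 61, and in PyMT these classes had 0 of 42, 0 of 62 and 0 of 58. Over all cells 106 of 7633 (1.39%) in Jagged1/PyMT and 8 of 7298 (0.110%) in PyMT were in the state, a pooled contrast that also reflects the macrophage numbers.

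High-state macrophages supplied much of the class's signal. They held 57.8% of the set's thinned UMIs in Jagged1/PyMT and 71.7% in PyMT. Unthinned, the top 17 Jagged1/PyMT macrophages held 36.0% of the set's UMIs and the top 2 PyMT macrophages 65.1%. Within the high state the set took 4 to 35 UMIs per 1000 (median 8) in Jagged1/PyMT. When these cells were left out, an alternative added after seeing the data, the macrophage log2 ratio of the set moved to 1.43. Isg15 was then at 109 CPM in Jagged1/PyMT and 58.8 CPM in PyMT, and Irf7 at 88.4 CPM in Jagged1/PyMT and 23.3 CPM in PyMT. The set's own UMIs chose the cells left out, which held a larger share of those UMIs in PyMT, so these values are a description. In T cells the high cells held 17.5% of the set's thinned UMIs in Jagged1/PyMT and 1.48% in PyMT, and without them the log2 ratio was 0.36 in place of 0.55.

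**Figure D3:**
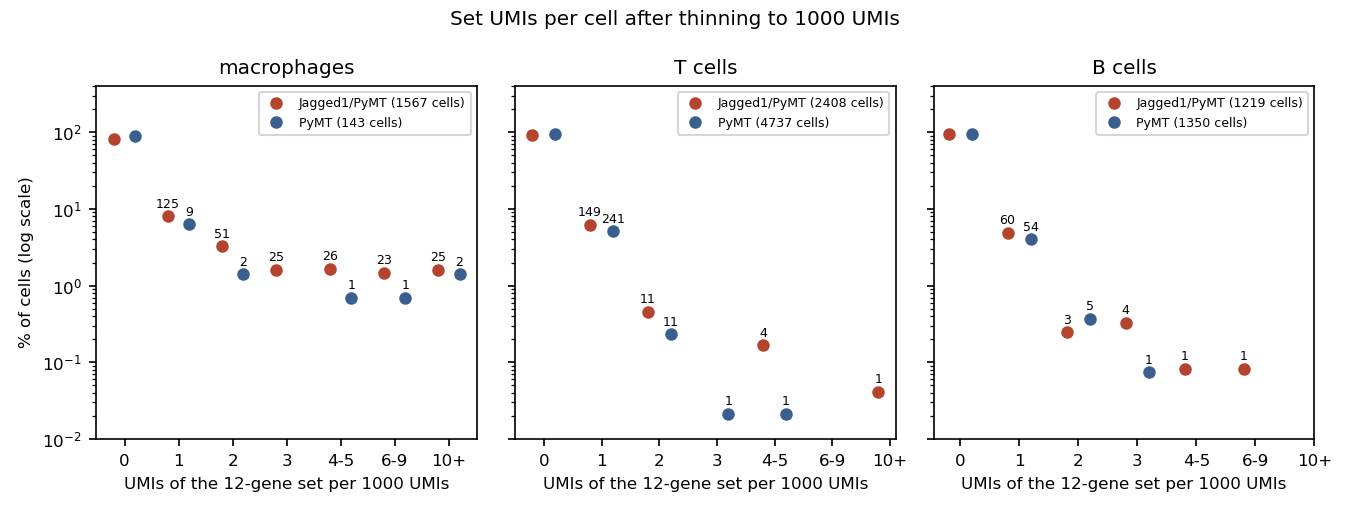
Percent of cells, on a log axis, by UMIs of the 12-gene set after thinning to 1000 UMIs, for macrophages, T cells and B cells of Jagged1/PyMT and PyMT, with cell counts beside the points. Most cells had 0 UMIs, and a tail of 10 or more held 25 Jagged1/PyMT macrophages (1.60%) and 2 PyMT macrophages (1.40%).

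Which members of the set carried the state differed. Isg15, Irf7 and Ifit3 had UMIs in 54, 52 and 43 of the 54 Jagged1/PyMT high-state macrophages, while Cmpk2 was found in 19 and Ifi44 in 9. These genes chose the cells, so the counts are a description. High-state cells held 78.8% of all macrophage UMIs of Rsad2 in Jagged1/PyMT and 100% in PyMT, and 76.3% of those of Cmpk2 in Jagged1/PyMT and 100% in PyMT. At the other end they held 43.3% of Isg15 UMIs in Jagged1/PyMT and 54.8% in PyMT, and 25.3% of those of Irf7 in Jagged1/PyMT and 55.0% in PyMT. Outside the state, 76 UMIs of Ifit1 lay in 40 Jagged1/PyMT macrophages, 89 of Ifit2 in 52 and 138 of Ifit3 in 63.

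The 32 members outside the set did not choose these cells, and in Jagged1/PyMT all 31 measured were over 1.5-fold higher in high-state than in other macrophages. Of 9123 genes 16.7% were over 1.5-fold higher in the same cells, and the median log2 ratio was 3.26 for the members and -0.13 for all genes. Oas3, a synthetase for RNase L, was at 72.0 CPM in high-state and 3.53 CPM in other macrophages, a log2 ratio of 4.35. Oasl2 was at 259 CPM in high-state and 16.3 CPM in other cells, a ratio of 3.99 (3.62 to 4.35). Isg20 was at 150 CPM in high-state and 7.57 CPM in other cells, a ratio of 4.31. Effectors led, with a median of 3.85, but the most abundant ones differed less: Bst2 had 1068 CPM in high-state and 242 CPM in other cells, and Samhd1 291 CPM in high-state and 83.1 CPM in other cells. Of the signalling genes, Stat2 was at 144 CPM in high-state and 10.4 CPM in other cells, a log2 ratio of 3.80 (3.30 to 4.27), and Irf9 at 57.6 CPM in high-state and 19.7 CPM in other cells, a ratio of 1.55.
All 7 sensors were higher, with a median of 3.26, among them Ddx58 (86.4 CPM in high-state and 6.47 CPM in other cells) and Zbp1 (242 CPM in high-state and 25.4 CPM in other cells). The 10 other members had a median of 3.32, with Rtp4 at 366 CPM in high-state and 23.2 CPM in other cells and Phf11b at 553 CPM in high-state and 48.9 CPM in other cells.

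GTPases induced by interferon gamma were also higher in the state, for 5 of 5 measured, with a median log2 ratio of 2.97. Both types of interferon induce overlapping genes, and which type acted in these cells was not tested. Ifi47 was at 127 CPM in high-state and 9.34 CPM in other Jagged1/PyMT macrophages, and Igtp at 89.3 CPM in high-state and 8.45 CPM in other cells. Irgm1 was at 72.0 CPM in high-state and 9.19 CPM in other cells, and Gbp2 at 170 CPM in high-state and 22.9 CPM in other cells. Gbp3 differed least, at 77.8 CPM in high-state and 43.7 CPM in other cells, a log2 ratio of 0.83 (0.22 to 1.39). Cxcl9 and Cxcl10, chemokines that draw T cells, were at 138 and 1644 CPM in high-state cells and 10.2 and 105 CPM in other cells. Cd274, the gene of the checkpoint ligand PD-L1, was at 80.6 CPM in high-state and 10.1 CPM in other macrophages. Members with an ISRE core in their promoter window had a median log2 ratio of 3.13 (16 members) and those without one 3.37 (8 members), so both groups of members were high.

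The high-state cells carried RNA of Csf1r, which did not gate macrophages, at 590 CPM, against 779 CPM in other Jagged1/PyMT macrophages. The C1q genes gated all these cells, so their presence was fixed in advance. Their median count was 65 UMIs in high-state and 82 UMIs in other cells. Adgre1, the F4/80 gene, was lower in the high-state cells, at 51.8 CPM, against 134 CPM in other cells. So was the proliferation gene Mki67, at 17.3 CPM in high-state and 89.7 CPM in other cells. S100a8, a neutrophil and monocyte gene, was higher, at 279 CPM in high-state and 58.7 CPM in other cells, and their median depth was 4757 UMIs, against 7504 in the others. Clustering made without the members put 30 of the 54 cells in cluster 0 and 16 in cluster 8, both macrophage clusters. Another 6 lay in cluster 10, which was led by neutrophil markers. Clusters 0, 8 and 10 held 838, 663 and 29 Jagged1/PyMT macrophages. High-state cells thus made up more of the few macrophages in cluster 10 than of those in clusters 0 and 8. Of all barcodes in clusters 0 and 8, 41.7% and 5.95% had markers of more than 1 lineage. The part of other cells' RNA in the state was not tested.

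**Figure D4:**
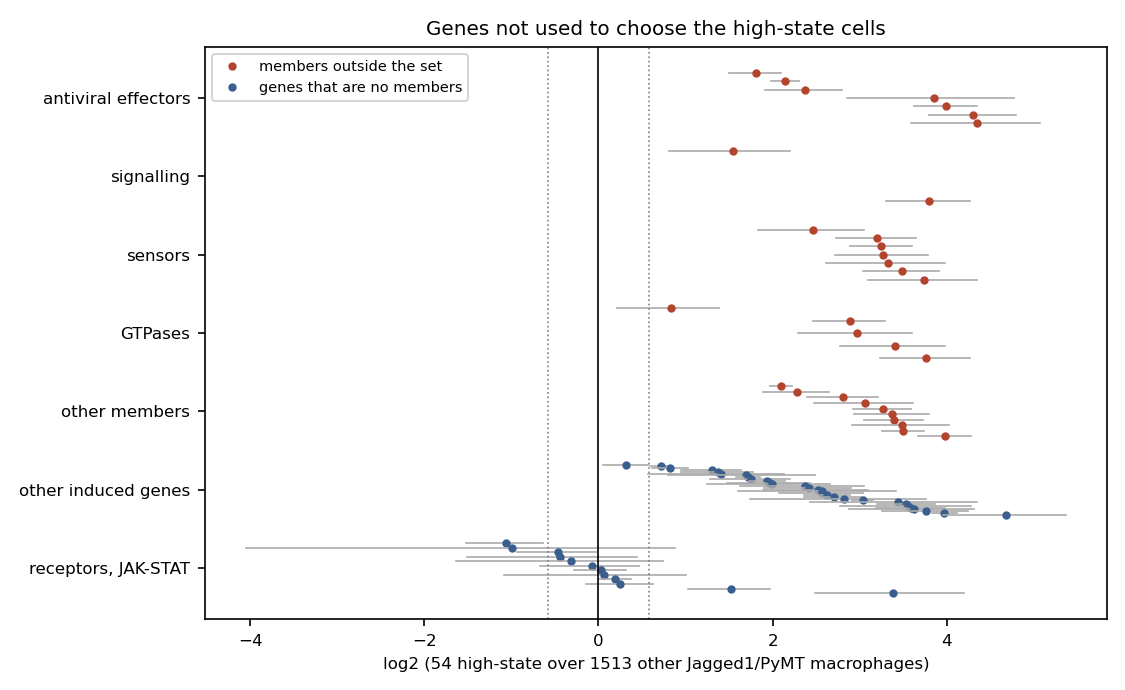
Log2 ratio of CPM in high-state over other Jagged1/PyMT macrophages for genes outside the 12-gene set, by gene list, with members in red and other genes of the pathway in blue. Members lay far above 0, with a median of 3.26, while receptor and JAK-STAT genes had a median of -0.03.

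RNA of the interferons was scarce. No UMI of Ifna1, Ifna2, Ifna4 or Ifna5 was found in any class of either library. Ifng, made by T and NK cells, had 19 UMIs in 14 Jagged1/PyMT T cells (1.89 CPM) and 42 UMIs in 19 PyMT T cells (2.08 CPM), and 13 UMIs in 1 Jagged1/PyMT NK cell and 4 UMIs in 3 PyMT NK cells. Ifnb1, the interferon beta gene, had 3 UMIs in Jagged1/PyMT macrophages and 2 in PyMT macrophages. In barcodes with markers of several lineages it had 57 UMIs in 5 Jagged1/PyMT barcodes and 5 UMIs in 2 PyMT barcodes. These counts are too low to set an order between genotypes.

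Few receptor and JAK-STAT genes passed 1.5-fold. Of 12 measured in each class, 0 were over 1.5-fold higher and 2 lower in Jagged1/PyMT macrophages, 0 higher and 1 lower in T cells, and 0 higher and 0 lower in B cells. Over all genes, 15.5% were higher and 10.4% lower in macrophages, 6.43% and 5.94% in T cells, and 4.52% and 6.1% in B cells. Among 12 genes such shares amount to few. In macrophages 7 of the 12 ratios were positive, with Ifngr1 at 0.41 (0.19 to 0.63) and Ifngr2 at 0.44 (0.17 to 0.73). Ifnar1 and Ifnar2, which form the type I receptor, were at 143 and 271 CPM in Jagged1/PyMT and 133 and 235 CPM in PyMT macrophages. Ifngr1, the binding chain of the interferon gamma receptor, was at 527 CPM in Jagged1/PyMT and 815 CPM in PyMT T cells, a log2 ratio of -0.63 (-0.67 to -0.58). Socs1, an inhibitor of JAK kinases, was at 5.42 CPM in Jagged1/PyMT and 15.3 CPM in PyMT macrophages but at 112 CPM in Jagged1/PyMT and 80.2 CPM in PyMT T cells. Jak2, a kinase of the interferon gamma receptor, was at 24.8 CPM in Jagged1/PyMT and 57.8 CPM in PyMT macrophages, a log2 ratio of -1.22 (-1.64 to -0.78). In high-state macrophages the receptor chains Ifnar1 and Ifnar2 had log2 ratios of 0.25 and 0.02 over other cells, Ifngr1 -1.06 (-1.53 to -0.63) and Socs1 3.38.

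Sensors upstream of interferon, such as Tmem173 (the gene of STING), were over 1.5-fold higher for 3 of 11 and lower for 1 in macrophages, 1 and 0 of 8 in T cells, and 0 and 0 of 7 in B cells, where the shares over all genes are those given above (15.5% and 10.4% in macrophages, 6.43% and 5.94% in T cells). Tmem173 was at 62.1 CPM in Jagged1/PyMT and 37.1 CPM in PyMT macrophages and at 26.5 CPM in Jagged1/PyMT and 15.5 CPM in PyMT T cells. Of other interferon-induced genes that are not members, 6 of 29 were over 1.5-fold higher and 1 lower in macrophages, 5 and 0 of 31 in T cells, and 4 and 1 of 21 in B cells, with medians of 0.40, 0.33 and 0.30, beside 0.08, -0.00 and -0.03 for all genes. In macrophages 15.5% of all genes were higher, so the count there was near that share. Cxcl10 was at 143 CPM in Jagged1/PyMT and 52.4 CPM in PyMT macrophages, a log2 ratio of 1.44 (1.03 to 1.89). Psmb9, a subunit of the immunoproteasome, was at 112 CPM in Jagged1/PyMT and 72.4 CPM in PyMT T cells and at 90.1 CPM in Jagged1/PyMT and 49.5 CPM in PyMT B cells. B2m, the light chain of MHC class I, was close to level, at 1224 CPM in Jagged1/PyMT and 1272 CPM in PyMT T cells.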

How the data were processed

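The authors deposited raw UMI count matrices from Cell Ranger 3.0.2 (a tool named in the submitters' processing notes and in the file headers), neither normalised nor filtered for cells (737280 barcodes each). Build and annotation were not given in the sources used here. The labels name a 3′ kit of version 3.1, but the barcode list has the size of an older kit's, so the version is not certain. UMIs were summed per library and class and divided by the class total (CPM). CPM have exact Poisson intervals, ratios exact conditional binomial intervals and shares Clopper-Pearson intervals. Ratios and counts past 1.5-fold used genes with at least 50 UMIs over both libraries, and 0 UMIs were set to 3 counts. Near copies (Ifit3 and Ifit3b, Ifi203 and Ifi204, Slfn5 and Slfn8, Gbp2 and Gbp3) can share reads, so their counts are uncertain. Thinning used seed 1. Doublets stayed in, apart from barcodes with markers of several lineages, which were left out of the classes; Scrublet's automatic threshold marked 0% of Jagged1/PyMT and 0.0403% of PyMT cells and had failed.

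The members, gene lists and tests were chosen with earlier results of these data known. Genes named were members by role group (in T cells, macrophages and B cells the 6 largest and 6 smallest ratios by the interval bound nearest 0, the 12-gene set, the 6 GTPases), up to 6 of each other list with the most UMIs or over 1.5-fold, and Jag1 and Ptprc; the genes describing high-state macrophages (Csf1r, Adgre1, Mki67, S100a8, Cd274) were chosen after their values were seen. Alternatives changed the cell filters, the gate, the definition of the high state, the scaling and the count minimum. The scripts were tested on simulated data. Tools were Python 3.11.15, numpy 2.4.6, scipy 1.17.1, pandas 2.3.3, scanpy 1.11.5, matplotlib 3.10.9 and, for TMM scaling in R 4.3.3, edgeR 4.0.16. A gene of the pathway is not reported here.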

Additional observations from a re-analysis of the deposited data

Results flagged for a closer look

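Rsad2 moved in opposite directions in the classes: its log2 ratio of Jagged1/PyMT over PyMT was -0.70 in macrophages and 4.49 in T cells. The difference between those ratios was not tested. The PyMT macrophage level came from 3 cells, and 39 of the 56 UMIs in Jagged1/PyMT T cells came from 1 cell. Without the cells in the high state, which Rsad2 helped to choose, both ratios were positive, at least 1.69 in macrophages and 2.59 in T cells.

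Barcodes with markers of more than 1 lineage, which were left out of the classes and entered them only in 1 alternative, also held the high state: 32 of 1885 in Jagged1/PyMT, 1.70% (1.16 to 2.39), against 2 of 641 in PyMT, 0.312% (0.0378 to 1.12). These barcodes differed in make-up: their C1q genes were at 6679 CPM (median 33 UMIs) in Jagged1/PyMT and 2349 CPM (median 2 UMIs) in PyMT, and the part of this in the shares was not tested.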

How the results depend on the processing

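No paired analysis was possible because the 2 samples of each genotype were deposited in a single matrix whose barcodes carry no sample name; leaving out a replicate was not possible for the same reason. Of 309 alternative values for 21 summary results under 22 settings, 246 stayed, 63 moved further and 0 reversed. Counts stayed if within 1.5 times, median log2 ratios if within 0.2, and other values if within their counting interval. Only a ratio over 1.5-fold could count as reversed. Among the summary results that held for the B cell GTPase sum alone, so the 0 was nearly fixed by the rule. The macrophage set ratio, under 1.5-fold at 0.53, became negative in 1 setting. Of 585 values for single members, 562 stayed, 9 moved and 14 reversed. The limit is the 177 PyMT macrophages and 1 library per genotype. The cause of each change was not tested.

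Log2 ratios are Jagged1/PyMT over PyMT. With a gate of 2 UMIs, 0 members were over 1.5-fold lower in macrophages, the set ratio in T cells was 0.41, and high-state shares of T cells were 0.0451% in Jagged1/PyMT and 0% in PyMT. With a gate of 5 UMIs, the macrophage median was 0.33 and set ratio 0.34, 2 members were lower in T cells, and high-state shares were 0% for Jagged1/PyMT B cells and 0% for PyMT T cells; Oasl1 reversed to -0.29 and Ifi47 to -0.0085 in macrophages. With the dominant lineage taken and second-lineage barcodes kept, the macrophage median was 0.13, with 7 members higher and 5 lower, the set ratio was -0.10 and the PyMT T cell share 0%; Oasl1 reversed to -0.94, Mx1 to -1.57, Ifi203 to -0.012, Igtp to -0.15 and Ifi47 to -0.42. With classes from clusters made without the members, the macrophage median was 0.35, with 2 members lower, the set ratio 0.30 and the Jagged1/PyMT T cell share 0.0381%; Oasl1 reversed to -0.55, Mx1 to -1.10, Ifi203 to -0.15, Igtp to -0.23 and Ifi47 to -0.50.

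With a mitochondrial limit of 5%, 6 members were higher in B cells, and shares were 0% in Jagged1/PyMT B cells and 0% in PyMT T cells. With at least 1000 UMIs per cell the Jagged1/PyMT B cell share was 0%, and with the top expected doublet share removed it was 0%, as was the PyMT T cell share. Asking for 3 UMIs from 2 genes gave a Jagged1/PyMT macrophage share of 6.32%. Asking for 6 UMIs from 4 genes gave 2.04% in Jagged1/PyMT macrophages, 0.0415% in Jagged1/PyMT T cells, 0% in Jagged1/PyMT B cells and 0% in PyMT T cells. Thinned to 2000 UMIs the Jagged1/PyMT macrophage share was 6.34%, and not thinned it was 11.2%, with 0.530% of Jagged1/PyMT T cells. Thinned to 500 UMIs, with 3 UMIs from 2 genes, shares were 0% in Jagged1/PyMT B cells and 0% in PyMT T cells. Without Isg15 in the set they were 2.49% in Jagged1/PyMT macrophages, 0% in Jagged1/PyMT B cells and 0% in PyMT T cells. With thinning seed 2 they were 0.0415% in Jagged1/PyMT and 0% in PyMT T cells.

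As a mean over cells, 2 members were lower in macrophages and the set ratio was 0.72. In cells thinned to 1000 UMIs the macrophage median was 0.29, with 6 of 16 members higher and 2 lower, 0 members were lower in T cells, the GTPase ratio in T cells was 0.37, and the B cell median was 0.18 with 0 of 8 higher; Oas1a reversed to -0.34 in macrophages. With free RNA subtracted at 5%, 2 members were lower in T cells and the set ratio there was 0.37. With at least 10 UMIs per gene, 2 of 44 were lower in macrophages, 19 of 41 higher in T cells and 17 of 30 higher in B cells. With at least 200 UMIs, 12 of 30 were higher in macrophages, 6 of 23 higher and 0 lower in T cells, and 2 of 8 higher in B cells with a median of 0.20. Without the cells in the high state, chosen after seeing the data, the macrophage median was 0.83, with 0 lower and a set ratio of 1.43. In T cells 2 members were then lower and the set ratio was 0.36, and Rsad2 reversed to 1.69 in macrophages. The 12-gene set, which includes Rsad2, chose the cells left out, so these ratios depend on that choice.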

Other observations

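Outside the classes, the high state also held 7 of 196 barcodes in Jagged1/PyMT and 1 of 163 in PyMT among those that met no gate. These barcodes had 827 CPM of the 12-gene set in Jagged1/PyMT and 278 CPM in PyMT. Epithelial-gated cells, 34 in Jagged1/PyMT and 54 in PyMT, had 260 CPM in Jagged1/PyMT and 435 CPM in PyMT, but 1 cell of each library held 73.7% of the set's thinned UMIs in Jagged1/PyMT and 80.6% in PyMT. T cells with a Foxp3 UMI, 38 in Jagged1/PyMT and 91 in PyMT, had 164 CPM of the interferon gamma GTPases in Jagged1/PyMT and 309 CPM in PyMT. In the same cells the 12-gene set was at 139 CPM in Jagged1/PyMT and 46.2 CPM in PyMT, on 33 UMIs in Jagged1/PyMT and 25 in PyMT, and all members at 2214 CPM in Jagged1/PyMT and 1885 CPM in PyMT.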
